A study of Mus musculus with 10 samples.

Results

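The collagen genes of the mouse were described in cardiomyocytes of the atria and of the ventricles. Members were the gene symbols made of Col, a type number, the letter a and a chain number, and 44 of the 25239 symbols in the tables had this form. Of these, 36 averaged at least 10 normalized reads over the 10 libraries and were tested. A normalized read is a read count that the authors divided by a size factor for its library, per the file headers. The other 8 members, Col2a1, Col6a4, Col9a1, Col9a3, Col10a1, Col19a1, Col22a1 and Col28a1, were left out of the tests.

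The groups were 5 libraries of atrial cardiomyocytes and 5 libraries of ventricular cardiomyocytes, both from wild-type (WT) mice, with no treatment named. The molecule was total RNA, extracted with Trizol, and libraries were built with the ScriptSeq v2 kit. The labels give no age, sex or strain and no method of cell isolation, and they do not say that libraries came from separate animals. Each p-value below therefore reflects variation among libraries, part of which may be technical.

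Collagens are matrix proteins, most of them secreted, in which chains wind around each other into a triple helix. Fibrillar collagens (types I, II, III, V, XI, XXIV and XXVII) assemble into the fibrils that carry tension between heart muscle bundles, and fibroblasts are known as their main source in the heart. Type IV collagen forms the sheet-like network of basement membranes, the layer that wraps each cardiomyocyte, smooth muscle cell and capillary. Its chains are encoded by pairs of neighbouring genes read in opposite directions: Col4a1 with Col4a2, Col4a3 with Col4a4, and Col4a5 with Col4a6. The chains of Col4a1 and Col4a2 form the network found in nearly all basement membranes. Those of Col4a3, Col4a4 and Col4a5 form the network of the kidney filter, and those of Col4a5 and Col4a6 a network known from smooth muscle and epithelial basement membranes.

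The promoters of the Col4a5 and Col4a6 pair, whose genes were both higher in atrial cells, and of the Col4a1 and Col4a2 pair, of which neither was called, are shown for comparison. Sequences are from RefSeq on the GRCm38.p6 build and run, 5′ to 3′ on the gene's own strand, from 250 bases before to 50 bases after the start site. The windows are chrX:141475169-141475468 on the plus strand for Col4a5, chrX:141474027-141474326 on the minus strand for Col4a6, chr8:11312777-11313076 on the minus strand for Col4a1 and chr8:11312555-11312854 on the plus strand for Col4a2. Capitals mark exact matches to the GC box (GGGCGG, or CCGCCC on the other strand) and to the CCAAT box (CCAAT, or ATTGG on the other strand).
Col4a5: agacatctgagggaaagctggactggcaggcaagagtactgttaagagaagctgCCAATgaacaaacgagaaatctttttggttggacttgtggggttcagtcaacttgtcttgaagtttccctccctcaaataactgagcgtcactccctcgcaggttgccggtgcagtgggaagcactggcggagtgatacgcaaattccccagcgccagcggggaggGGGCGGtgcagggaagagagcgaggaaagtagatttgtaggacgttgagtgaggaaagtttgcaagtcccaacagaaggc
Col4a6: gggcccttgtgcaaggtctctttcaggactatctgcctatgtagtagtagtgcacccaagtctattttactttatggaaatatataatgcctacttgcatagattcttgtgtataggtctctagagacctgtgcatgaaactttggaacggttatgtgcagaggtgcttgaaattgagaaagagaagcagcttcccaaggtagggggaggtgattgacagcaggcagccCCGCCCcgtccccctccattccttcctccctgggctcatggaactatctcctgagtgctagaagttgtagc
Col4a1: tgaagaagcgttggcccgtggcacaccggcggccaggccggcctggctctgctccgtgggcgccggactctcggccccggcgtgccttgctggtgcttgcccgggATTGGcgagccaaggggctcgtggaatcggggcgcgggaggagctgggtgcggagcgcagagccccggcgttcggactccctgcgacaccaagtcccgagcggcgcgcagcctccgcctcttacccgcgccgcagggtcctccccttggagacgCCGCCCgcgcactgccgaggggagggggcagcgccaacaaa
Col4a2: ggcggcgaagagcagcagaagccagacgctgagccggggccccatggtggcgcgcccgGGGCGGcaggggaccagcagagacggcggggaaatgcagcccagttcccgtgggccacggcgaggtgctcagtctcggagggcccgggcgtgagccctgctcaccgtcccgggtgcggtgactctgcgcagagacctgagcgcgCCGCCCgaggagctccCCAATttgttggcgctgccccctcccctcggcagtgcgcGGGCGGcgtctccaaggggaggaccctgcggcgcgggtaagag
The start sites of Col4a5 and Col4a6 lie 1343 bases apart and their windows share no base. Those of Col4a1 and Col4a2 lie 21 bases apart, and their windows share 78 bases, so that a match there is counted for both genes. The Col4a1 and Col4a2 windows are 74% and 73.7% G or C, and the Col4a5 and Col4a6 windows 52.7% and 48.3%. Col4a5 held 1 GC box and 1 CCAAT box, Col4a6 held 1 GC box and no CCAAT box, Col4a1 held 1 of each, and Col4a2 held 3 GC boxes and 1 CCAAT box. No printed matches overlap, and none of the 4 windows held a TATA box (TATAAA, or TTTATA on the other strand). Of all 32851 promoters of this length in the table, 35.7% held a GC box, 37.4% a CCAAT box and 13.6% a TATA box. Of the 38 promoters of the 35 collagen genes found there, 60.5% held a GC box, 34.2% a CCAAT box and 13.2% a TATA box. A match describes letters in the window and is no evidence of binding.

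Reads per library, recovered from the normalized values, ranged from 3893406 to 12575523 in atrial and from 1790402 to 12842635 in ventricular libraries, with the fewest in replicates 1 and 2 of both chambers. Where a gene is at 0, counting error alone leaves room for 3 reads, a floor of 1.70 to 10.4 normalized reads by library. The share of reads on Rn45s, the ribosomal precursor, was 23.1% to 29.8% in replicates 3 to 5 and 0.215% to 0.480% in the others, whatever the chamber. Because of this division, which the labels do not give, chambers were also compared within each set of replicates. In the libraries numbered 1, 21576 genes (atrial) and 19232 genes (ventricular) had at least 1 read, and in the others 15950 to 16618. The labels were checked against chamber markers: 7 of 7 atrial cardiomyocyte genes were higher and 5 of 5 ventricular cardiomyocyte genes lower in atrial libraries (limma, adjusted p at most 0.05). Markers of other heart cells were also present, and in such bulk samples fewer cells of a type and less RNA per cell cannot be told apart. With Rn45s left aside, collagen genes took 0.613%, 0.629%, 0.896%, 0.852% and 0.870% of reads in atrial replicates 1 to 5, against 0.272%, 0.402%, 1.04%, 1.36% and 1.19% in ventricular replicates 1 to 5. The atrial shares were the higher ones in replicates 1 and 2 and the lower ones in replicates 3 to 5.

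In atrial cardiomyocytes 4 collagen genes were higher and 5 were lower, and they belong to different classes of collagen. Higher were the type IV genes Col4a5 and Col4a6, the type VI gene Col6a5 and the transmembrane collagen gene Col13a1. Lower were the fibrillar genes Col5a3 and Col27a1, the fibril-associated gene Col9a2, the basement membrane zone gene Col15a1 and Col26a1. The test was limma's moderated test on log2(normalized reads + 1) over 12422 genes with Benjamini-Hochberg adjustment, and a gene was called at an adjusted p of at most 0.05. Differences are atrial minus ventricular on that log2 scale, which shrinks differences of sparsely read genes. A fold is the mean of normalized reads in one chamber over that in the other. The 4 higher genes are 11.1% of the 36 tested, against 8.12% of all tested genes higher, and the 5 lower are 13.9%, against 6.56% lower. The median difference was 0.03 over the 36 collagen genes and -0.01 over all tested genes. With the replicate number as a block, 9 collagen genes were higher and 4 lower, where 16.3% and 16.0% of all tested genes were called. With the library set as a term the counts were 8 and 7 (16.0% and 15.8% of all tested genes). On the recovered reads, edgeR called 5 higher and 7 lower (8.77% and 7.29% of all tested genes) and DESeq2 7 and 8 (11.0% and 9.84%). Without both libraries numbered 1, a choice made after seeing the data, limma called 5 higher and 8 lower (9.16% and 8.09%). The count of lower genes also rested on single libraries: it was 8 without ventricular replicate 1 and 1 or 2 without any one of atrial replicates 2 to 5 or ventricular replicates 3 to 5.

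Of the 6 type IV genes, 2 minor chains were higher in atrial cells and none was lower (limma; at an unadjusted p under 0.05, 3 higher and 0 lower; edgeR and DESeq2, 3 and 0 each). Shares of all tested genes were 8.12% higher and 6.56% lower in limma, 8.77% and 7.29% in edgeR, and 11.0% and 9.84% in DESeq2. The shares at an unadjusted p under 0.05 were not computed. Col4a5 and Col4a6, which lie side by side on the X chromosome, were higher in every atrial library than in any ventricular one. Col4a5 (chrX:141475385-141689234, plus strand, GRCm38; positions are of the whole gene) had 1794, 1786, 1427, 1400 and 1452 normalized reads in atrial replicates 1 to 5, against 976, 882, 658, 637 and 626 in ventricular replicates 1 to 5. Its level was 2.08-fold higher in atrial cells, and the log2 difference was 1.07 ± 0.16 (SE; limma, adjusted p = 0.000931). Col4a6 (chrX:141165403-141474076, minus strand) had 498, 443, 335, 311 and 339 normalized reads in atrial replicates 1 to 5, against 170, 146, 62.6, 56.8 and 55.6 in ventricular replicates 1 to 5. The fold was 3.93 and the log2 difference 2.11 ± 0.33 (limma, adjusted p = 0.00164). Levels of both genes were highest in replicates 1 and 2 of each chamber, and no atrial value overlapped a ventricular one. Values with no overlap and atrial libraries above were found for 5 collagen genes, Col4a5, Col4a6, Col6a5, Col8a2 and Col13a1, and for 7.84% of all tested genes.

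**Figure D1:**
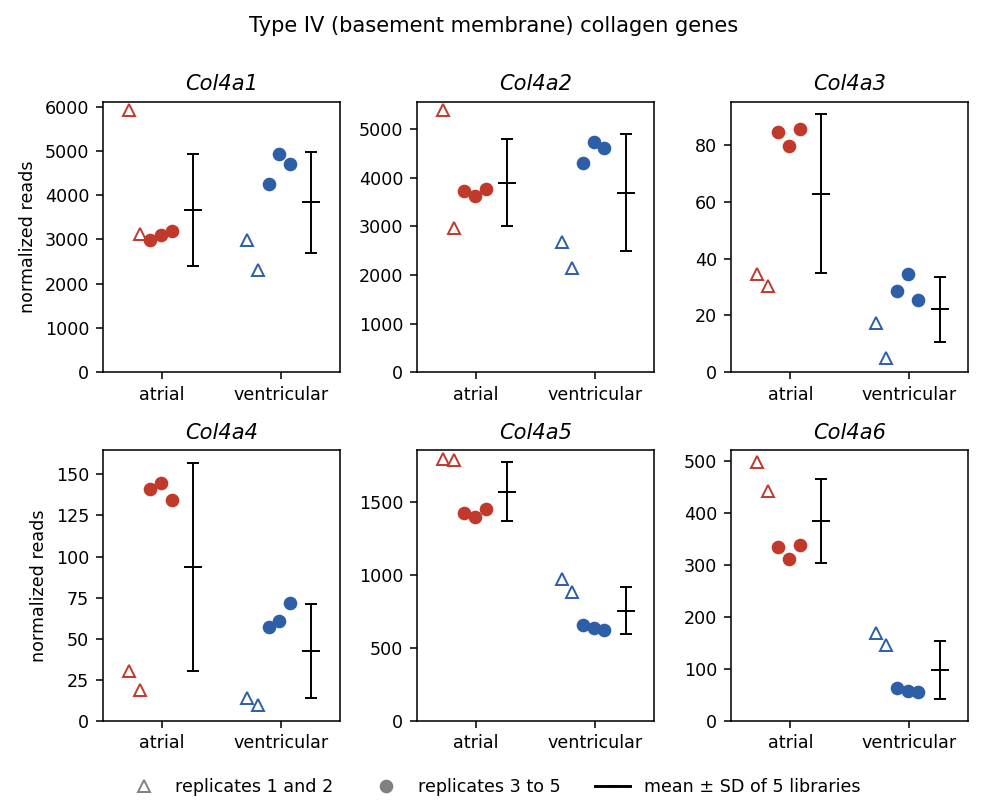
Normalized reads per library (linear axis) of the 6 type IV collagen genes, atrial left of ventricular, with triangles for replicates 1 and 2, circles for replicates 3 to 5, and lines for the mean ± SD of 5 libraries. Atrial and ventricular symbols are separate for Col4a5 and Col4a6 and overlap for Col4a1 and Col4a2, and the triangles of Col4a3 and Col4a4 lie below the circles in each chamber.

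Both sets of replicates gave calls for Col4a5 and Col4a6. Within replicates 1 and 2, the log2 differences were 0.95 ± 0.17 for Col4a5 and 1.57 ± 0.22 for Col4a6 (limma, adjusted p = 0.0169 and 0.00559). In replicates 3 to 5 they were 1.15 ± 0.05 and 2.47 ± 0.09 (limma, adjusted p = 6.57e-16 and 1.92e-18). The Col4a6 difference was larger in replicates 3 to 5 by 0.90 ± 0.17 (limma interaction, adjusted p = 0.0154), where the ventricular levels were lowest. That error is pooled over both sets and is smaller than the 0.22 found within replicates 1 and 2 alone. The ratio of Col4a5 to Col4a6 per kilobase of transcript was 4.20 ± 0.35 in atrial and 9.11 ± 2.86 in ventricular libraries (SD, n = 5 each). It spanned 3.67 to 4.58 in atrial and 5.85 to 11.5 in ventricular libraries, so that the pair did not move in equal proportion.

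Col4a3 and Col4a4, the neighbouring pair of the kidney-type network on chromosome 1, were expressed at low levels. Col4a3 had 34.5, 30.2, 84.6, 79.6 and 85.6 normalized reads in atrial replicates 1 to 5, against 17.3, 4.87, 28.5, 34.7 and 25.3 in ventricular replicates 1 to 5. Col4a4 had 30.3, 18.7, 141, 144 and 135 in atrial replicates 1 to 5, against 13.8, 9.75, 57.0, 60.8 and 71.7 in ventricular replicates 1 to 5. Every atrial library was above the ventricular library of its own number, while the groups as wholes overlapped, since replicates 1 and 2 were low in both chambers. The log2 differences were 1.56 ± 0.51 and 1.08 ± 0.74 and neither was called (limma, adjusted p = 0.068 and 0.43), though edgeR and DESeq2 called Col4a3 higher (adjusted p = 0.0407 and 0.00812). With the replicate block both were called, at the same differences with errors of 0.23 and 0.14 (limma, adjusted p = 0.00133 and 0.000686). Exons of Col4a3 share 563 bases with C430014B12Rik on the other strand, and without a known strand setting reads there cannot be assigned with certainty.

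Col4a1 and Col4a2 (on chromosome 8, with 22 exon bases in common on opposite strands) had levels close to each other in each library. Col4a1 had 5932, 3132, 2983, 3103 and 3188 normalized reads in atrial replicates 1 to 5, against 2982, 2308, 4245, 4938 and 4716 in ventricular replicates 1 to 5. Col4a2 had 5400, 2968, 3725, 3627 and 3773 in atrial replicates 1 to 5, against 2678, 2140, 4296, 4742 and 4609 in ventricular replicates 1 to 5. Atrial replicate 1 was the highest library for both genes, and elsewhere the order of the chambers turned between the sets. The log2 differences over all libraries were -0.06 ± 0.26 for Col4a1, where equal library totals gave 0.0071, and 0.12 ± 0.25 for Col4a2 (limma, adjusted p = 0.934 and 0.852). Both were lower in atrial cells within replicates 3 to 5, by log2 differences of -0.58 ± 0.06 and -0.29 ± 0.06 (limma, adjusted p = 5.34e-09 and 8.97e-05). In replicates 1 and 2 they were 0.72 ± 0.31 and 0.74 ± 0.29 and not called (limma, adjusted p = 0.289 and 0.234). The change between sets was called for Col4a1, at -1.30 ± 0.31 (limma interaction, adjusted p = 0.0402), and not for Col4a2, at -1.04 ± 0.28 (adjusted p = 0.0643).

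The mix of type IV chains was therefore compared as levels per kilobase, which corrects for transcript length. Col4a5 and Col4a6 together made up 20.7% ± 3.60 of type IV transcript in atrial and 11.3% ± 5.91 in ventricular libraries (SD, n = 5 each). Within replicates 3 to 5 the shares were 20.1% ± 0.254 and 7.04% ± 0.592 (n = 3 each) and did not overlap. Within replicates 1 and 2 the atrial shares were 16.7% and 26.6% and the ventricular shares 16.7% and 18.7%, which overlap. Col4a1 and Col4a2 made up 78.1% ± 3.52 in atrial and 88.2% ± 5.70 in ventricular libraries, and Col4a3 and Col4a4 1.21% ± 0.763 and 0.484% ± 0.216. The summed type IV level per kilobase was 1474 ± 346 normalized reads in atrial and 1290 ± 332 in ventricular libraries, a difference within the spread of either group.

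**Figure D2:**
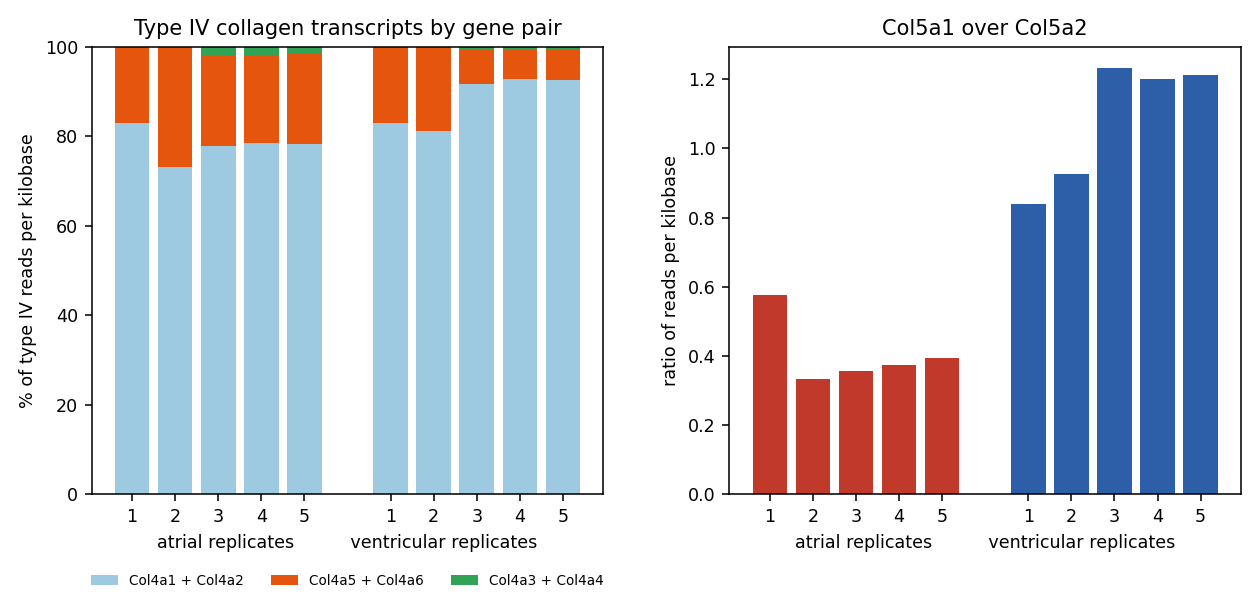
Share of type IV transcript per kilobase by chain pair in each library (left, stacked to 100%) and per-kilobase ratio of Col5a1 to Col5a2 in each library (right), atrial libraries left of ventricular ones, a bar for each library. The Col4a5 and Col4a6 share lies at 19.8% to 20.3% in atrial and 6.63% to 7.72% in ventricular replicates 3 to 5, while the lowest share is 16.7% in either chamber in replicates 1 and 2, and the Col5a1 to Col5a2 ratio is at most 0.576 in atrial and at least 0.839 in ventricular libraries.

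Of the 10 fibrillar genes tested, none was higher and 2 were lower in atrial cells. Both are minor fibrillar chains. No fibrillar gene reached an unadjusted p under 0.05 in the upward direction in limma, and edgeR and DESeq2 called 0 higher and 4 lower. Of all tested genes, limma called 8.12% higher and 6.56% lower, edgeR 8.77% and 7.29%, and DESeq2 11.0% and 9.84%. Col5a3, a chain of type V collagen, had 70.3, 37.4, 8.52, 10.6 and 9.65 normalized reads in atrial replicates 1 to 5, against 58.8, 51.2, 106, 151 and 130 in ventricular replicates 1 to 5. Its values overlapped in replicates 1 and 2 and lay far apart in replicates 3 to 5, where the ventricular mean was 13.4 times the atrial one. The log2 difference over all libraries was -2.20 ± 0.58 (limma, adjusted p = 0.0275), and the replicate block ended the call (adjusted p = 0.0585). Col27a1 had 44.1, 25.9, 26.7, 33.6 and 29.0 normalized reads in atrial replicates 1 to 5, against 38.1, 51.2, 97.3, 102 and 95.1 in ventricular replicates 1 to 5. Atrial replicate 1 overlapped ventricular replicate 1 and the remaining atrial values were lower than every ventricular one. The log2 difference was -1.17 ± 0.30 (limma, adjusted p = 0.0238). Leaving out any one of the 6 libraries of replicates 3 to 5 ended the call of Col5a3. For Col27a1 any of these but atrial replicate 4, and also atrial replicate 2, did so.

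The abundant fibrillar collagens of the heart, types I and III, were not called over all libraries by limma, edgeR or DESeq2. Col1a1 had 2061, 1136, 5269, 5008 and 5185 normalized reads in atrial replicates 1 to 5, against 609, 1033, 8326, 10437 and 9360 in ventricular replicates 1 to 5. Col1a2 had 3083, 5670, 6701, 6064 and 5913 in atrial replicates 1 to 5, against 1118, 3437, 7432, 9490 and 8191 in ventricular replicates 1 to 5. Col3a1, the single chain of type III collagen, had 6391, 11685, 18076, 17247 and 17606 in atrial replicates 1 to 5, against 2602, 6052, 16134, 21319 and 18278 in ventricular replicates 1 to 5. All were lowest in replicates 1 and 2, where atrial libraries were above the ventricular ones of the same number. In replicates 3 to 5 the atrial values were below the ventricular ones for Col1a1 and Col1a2 and overlapped them for Col3a1. The log2 differences over all libraries were -0.14 ± 0.86, 0.18 ± 0.53 and 0.41 ± 0.56 (limma, adjusted p = 0.957, 0.901 and 0.753), and intervals this wide leave room for differences in either direction. Col1a1 and Col1a2 were lower in atrial cells within replicates 3 to 5, by -0.86 ± 0.07 and -0.42 ± 0.08 (limma, adjusted p = 1.03e-10 and 0.00013), and Col3a1 was not called, at -0.07 ± 0.08 (adjusted p = 0.507). Per kilobase, Col3a1 had the highest mean level of all collagen genes in both chambers, with 2552 normalized reads in the atrial and 2314 in the ventricular group.

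**Figure D3:**
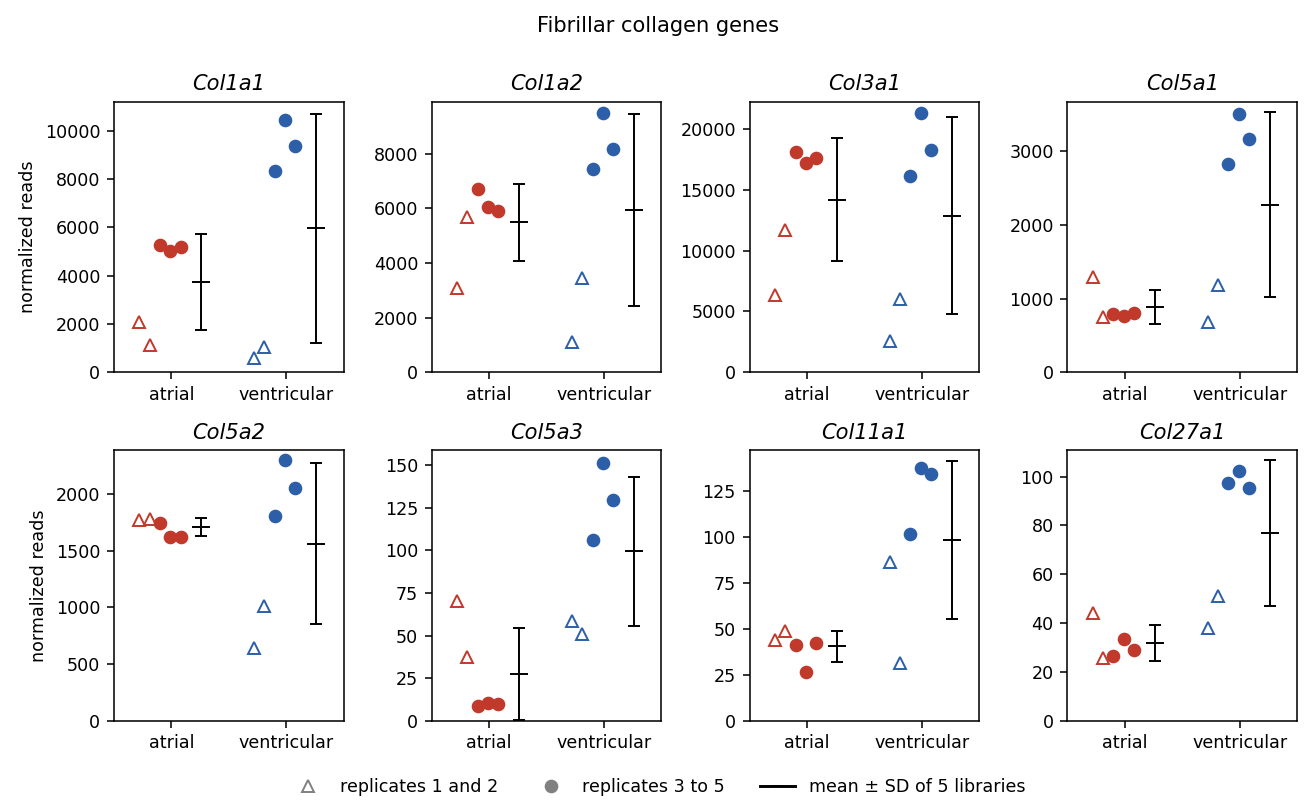
Normalized reads per library (linear axes) of 8 fibrillar collagen genes (Col11a2 and Col24a1 are not drawn), atrial left of ventricular, with triangles for replicates 1 and 2, circles for replicates 3 to 5, and lines for the mean ± SD of 5 libraries. Replicates 3 to 5 lie above replicates 1 and 2 in each chamber for Col1a1, Col1a2 and Col3a1. For atrial Col1a2 the gap is narrow (5670 in replicate 2, 5913 in replicate 5). The chambers differ most in replicates 3 to 5 for Col5a1, Col5a3, Col11a1 and Col27a1.

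Type V and type XI collagens, which sit inside type I fibrils and limit their width, showed unequal behaviour of their chains. Col5a1 had 1298, 750, 789, 769 and 808 normalized reads in atrial replicates 1 to 5, against 682, 1189, 2825, 3504 and 3164 in ventricular replicates 1 to 5. Col5a2 had 1775, 1776, 1744, 1622 and 1623 in atrial replicates 1 to 5, against 640, 1012, 1806, 2302 and 2056 in ventricular replicates 1 to 5. Atrial levels of Col5a2 were nearly level across libraries, while ventricular levels of both genes were several times higher in replicates 3 to 5 than in replicate 1. Neither was called over all libraries, at log2 differences of -1.15 ± 0.43 and 0.28 ± 0.31 (limma, adjusted p = 0.108 and 0.684), though edgeR and DESeq2 called Col5a1 lower (adjusted p = 0.0421 and 0.00657). The per-kilobase ratio of Col5a1 to Col5a2 was 0.406 ± 0.0975 in atrial and 1.08 ± 0.185 in ventricular libraries (SD, n = 5 each). It did not overlap, with a highest atrial value of 0.576 and a lowest ventricular value of 0.839, and this ratio was chosen after the values were seen. Col11a1 averaged 40.7 ± 8.43 normalized reads in atrial and 98.3 ± 43.1 in ventricular libraries, and the log2 difference was -1.12 ± 0.37 (limma, adjusted p = 0.0715; edgeR and DESeq2, adjusted p = 0.0191 and 0.00148). Col11a2 averaged 10.8 ± 8.63 and 11.9 ± 7.25, and Col24a1 63.6 ± 7.16 and 53.1 ± 18.9, and neither was called (limma, adjusted p = 0.829 and 0.514).

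In type VI collagen, which forms beaded filaments around cells, Col6a5 was higher in atrial cells and the chains of the common trimer were not called by limma over all libraries. Col6a5 had 41.4, 60.5, 75.6, 64.9 and 65.6 normalized reads in atrial replicates 1 to 5, against 34.6, 29.2, 16.1, 18.0 and 20.4 in ventricular replicates 1 to 5. All atrial values were above all ventricular ones, and the log2 difference was 1.37 ± 0.25 (limma, adjusted p = 0.00379). Col6a6 averaged 573 ± 221 in atrial and 389 ± 156 in ventricular libraries. Its difference of 0.57 was called with the replicate block or the library set as a term (limma, adjusted p = 0.00295 and 0.00096, against 0.382 without either). The common chains, Col6a1, Col6a2 and Col6a3, had differences over all libraries of -0.90, -0.64 and -0.65 (limma, adjusted p = 0.112, 0.263 and 0.475), and DESeq2 called Col6a1 lower (adjusted p = 0.0151). Within replicates 1 and 2 their differences were 0.18, 0.24 and 0.87 and not called (limma, adjusted p = 0.863, 0.645 and 0.559). All of them were lower in atrial cells within replicates 3 to 5, by -1.62, -1.22 and -1.67 (limma, adjusted p = 6.65e-07, 2.51e-13 and 6.43e-15). Col6a4 was among the genes not tested.

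In the remaining classes, the most negative difference among the called genes was that of Col15a1. Its product is found next to the basement membranes of muscle and vessels. It had 443, 125, 219, 192 and 218 normalized reads in atrial replicates 1 to 5, against 256, 429, 2218, 2940 and 2634 in ventricular replicates 1 to 5. Atrial replicate 1 was above ventricular replicate 1, and in replicates 3 to 5 the ventricular mean was 12.4 times the atrial one. The log2 difference was -2.37 ± 0.69 (limma, adjusted p = 0.0415). Col18a1, the related gene whose product releases endostatin, averaged 356 ± 196 in atrial and 184 ± 70.4 in ventricular libraries and was called with the replicate block, at 0.91 ± 0.14 (limma, adjusted p = 0.00166, against 0.102 without it), and by DESeq2 (adjusted p = 0.0473). Col26a1 averaged 11.2 ± 6.22 in atrial and 62.7 ± 42.3 in ventricular libraries, and the log2 difference was -2.20 ± 0.64 (limma, adjusted p = 0.0409). In replicates 3 to 5 its means were 11.2 in atrial and 93.0 in ventricular libraries. In replicates 1 and 2 they were 11.1 and 17.2 and it was not called (limma, adjusted p = 0.648). In replicate 1 the atrial value (19.3) was above the ventricular one (17.3). Calls of Col15a1 and Col26a1 were each lost without any one of atrial replicates 2 to 5 or ventricular replicates 3 to 5.

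Col9a2, a chain of a collagen that coats fibril surfaces in cartilage, had 24.8, 15.8, 10.2, 13.6 and 11.6 normalized reads in atrial replicates 1 to 5, against 31.1, 31.7, 41.5, 74.2 and 65.5 in ventricular replicates 1 to 5. All atrial values were below all ventricular ones, the only collagen gene of which this held (6.55% of all tested genes), and the log2 difference was -1.59 ± 0.32 (limma, adjusted p = 0.00669). Its partner chains Col9a1 and Col9a3 were too low to test, with 10.1 or fewer normalized reads in every library but atrial replicate 1. Col13a1, a transmembrane collagen of cell contacts, had 93.8, 40.3, 21, 22.4 and 26.4 in atrial replicates 1 to 5, against 13.8, 9.75, 6.20, 8.02 and 8.65 in ventricular replicates 1 to 5. Atrial values were all above ventricular ones and highest in replicate 1, and the log2 difference was 1.82 ± 0.41 (limma, adjusted p = 0.0116). Col23a1, another transmembrane collagen, was called with the replicate block, at 1.12 ± 0.25 (limma, adjusted p = 0.00963, against 0.646 without it). The 9 other tested genes of these classes, Col7a1, Col8a1, Col8a2, Col12a1, Col14a1, Col16a1, Col17a1, Col20a1 and Col25a1, were not called by limma over all libraries and had differences between -0.64 (Col17a1) and 0.96 (Col12a1). DESeq2 called Col12a1 higher (adjusted p = 0.0402), and limma with the library set as a term called Col8a2 higher (adjusted p = 0.0372).

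Chamber differences of collagen genes changed between the sets of replicates. Within replicates 1 and 2, 4 collagen genes were higher in atrial cells, Col4a5, Col4a6, Col5a2 and Col12a1, and 0 were lower (limma, adjusted p at most 0.05), where 3.09% of all tested genes were higher and 2.04% lower. At an unadjusted p under 0.05, 11 were higher and 0 lower, and the shares of all tested genes at that limit were not computed. Within replicates 3 to 5, 10 were higher and 17 lower, which is 27.8% and 47.2% of those tested, against 26.2% and 26.6% of all tested genes. Positive differences were found for 28 of 36 collagen genes in replicates 1 and 2 and for 14 of 36 in replicates 3 to 5, and the median difference was 0.71 and -0.30. Medians over all tested genes were -0.02 and -0.004. The sets differ in number and in spread of libraries, so a call in one set and not the other does not by itself show a change.

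The change itself was tested by the interaction of chamber and set. This fit pools the residual variance of a gene over both sets, although their spread differs, so its errors and p-values are approximate. The interaction was called for 12 of 36 collagen genes, or 33.3%, against 5.21% of all tested genes. In 11 the chamber difference was lower in replicates 3 to 5: Col1a1, Col5a1, Col5a2, Col5a3, Col4a1, Col6a1, Col6a2, Col6a3, Col12a1, Col14a1 and Col15a1. The 12th was Col4a6, whose difference was larger there. The most negative interaction was that of Col5a3, at -3.51 ± 0.39 (limma, adjusted p = 0.00154), followed by Col15a1 at -3.13 ± 0.59 (adjusted p = 0.0166). Col12a1, a fibril-associated collagen, had 963 and 423 normalized reads in atrial replicates 1 and 2, against 142 and 124 in ventricular replicates 1 and 2, and 262, 219 and 235 in atrial against 177, 263 and 234 in ventricular replicates 3 to 5. Col14a1, of the same class, had 920 and 832 in atrial against 343 and 658 in ventricular replicates 1 and 2, and 1132, 1038 and 1135 in atrial against 2431, 3001 and 2828 in ventricular replicates 3 to 5. The sign of the difference was opposite between sets for 16 of 36 collagen genes (44.4%) and for 31.5% of all tested genes. For Col5a2 the opposite signs were each called within their set, at 1.14 ± 0.23 and -0.30 ± 0.07 (limma, adjusted p = 0.0275 and 0.00132). Leaving out 1 library of replicates 3 to 5 changed the count of 12 to between 5 (without ventricular replicate 4 or 5) and 10 (without ventricular replicate 3). It was 6 without atrial replicate 4 and 7 without atrial replicate 3 or 5. Leaving out a library of replicates 1 and 2 leaves 1 library in a group, and no conclusion is drawn from those counts.

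**Figure D4:**
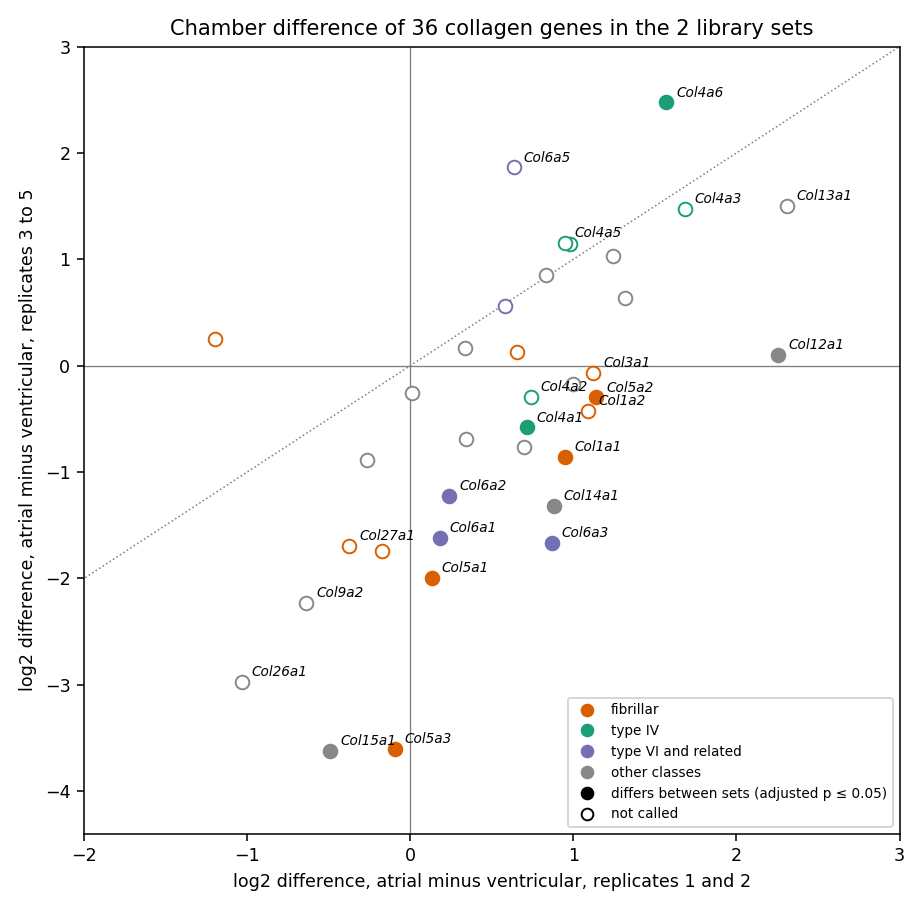
Log2 difference (atrial minus ventricular) of each tested collagen gene in replicates 1 and 2 (horizontal) and in replicates 3 to 5 (vertical), a point for each gene, coloured by class and filled where the interaction was called; the dotted line marks equal differences. Col4a5 and Col4a6 lie at positive values on both axes, and Col5a3 and Col15a1 lie near -3.6 vertically and between -0.49 and -0.09 horizontally.

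Summed by class and per kilobase, the fibrillar genes reached 3134 ± 850 normalized reads in atrial and 1613 ± 874 in ventricular replicates 1 and 2 (SD, n = 2 each). In replicates 3 to 5 they reached 5570 ± 177 in atrial and 7231 ± 925 in ventricular libraries (n = 3 each). Type IV genes summed to 1685 ± 574 in atrial and 942 ± 145 in ventricular replicates 1 and 2, and to 1334 ± 26.0 in atrial and 1522 ± 87.1 in ventricular replicates 3 to 5. For both classes the atrial sums were the higher ones in replicates 1 and 2 and the lower ones in replicates 3 to 5.

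Markers of fibroblasts, the main collagen-making cells of the heart, also differed between the sets of replicates, and the interaction was called for 5 of 12, against 5.21% of all tested genes. Over all libraries, 5 of these markers were lower in atrial libraries, Pdgfra, Lum, Islr, Mfap5 and Gsn, and 1, Fbln1, was higher (limma, adjusted p at most 0.05), where 6.56% of all tested genes were lower and 8.12% higher. With the replicate block 6 were lower and 2 higher, where 16.0% and 16.3% of all tested genes were called. Their sum was 4429 to 5445 normalized reads in atrial and 3875 to 12936 in ventricular libraries, and no marker was at 0 throughout a group. In replicates 3 to 5 the sums were 4429 to 4758 in atrial and 9978 to 12936 in ventricular libraries, and in replicates 1 and 2 they were 4492 and 5445 in atrial and 3875 and 7039 in ventricular libraries. Of 9 epicardial and mesothelial markers tested, 8 were higher in atrial libraries with or without the block, with sums of 3447 to 8523 in atrial and 509 to 3359 in ventricular libraries. Of 12 endothelial markers 3 were higher and 0 lower (6 and 1 with the block), with sums of 1336 to 5067 in atrial and 356 to 1983 in ventricular libraries. Of 9 smooth muscle and pericyte markers 0 were higher and 3 lower (1 and 5 with the block), with sums of 1873 to 6732 in atrial and 9560 to 15802 in ventricular libraries. The interaction was called for 5 of these 9, and for 0 of the 9 epicardial and 0 of the 12 endothelial markers. The part of these cells in the collagen differences was not tested.

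**Figure D5:**
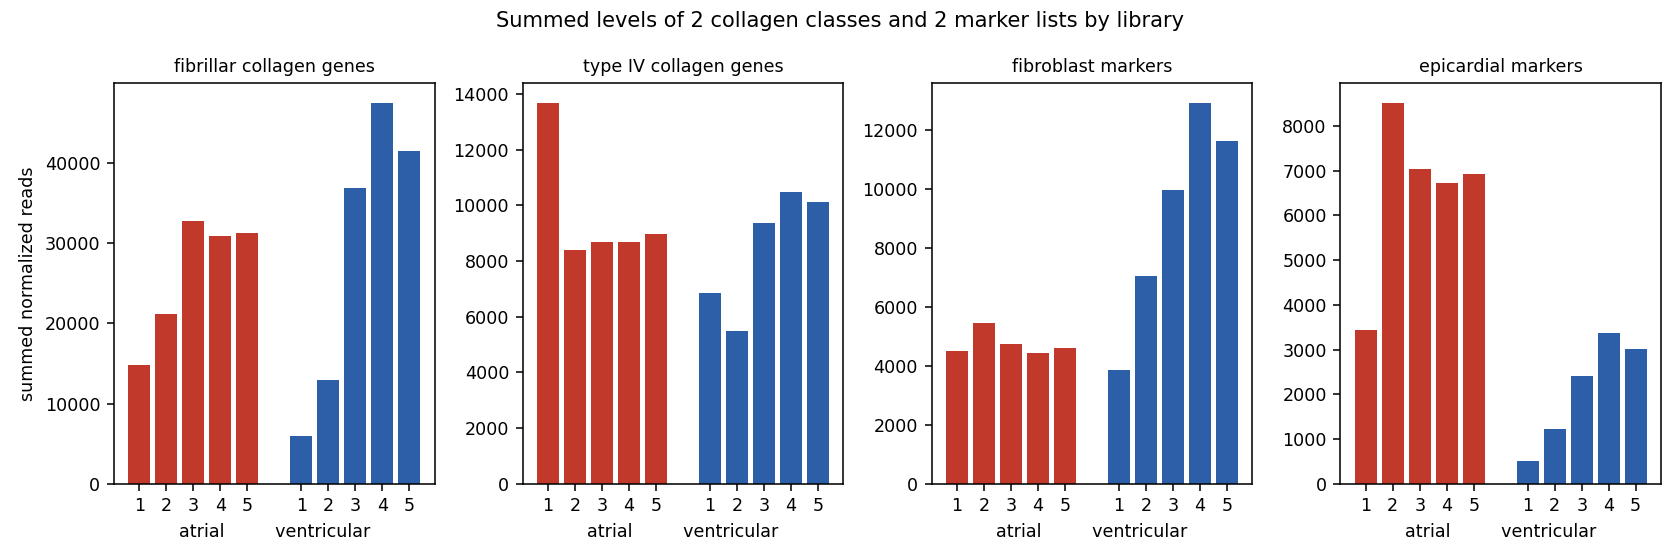
Summed normalized reads on a linear axis of the fibrillar genes, the type IV genes and the fibroblast and epicardial marker lists, a bar for each library, atrial left of ventricular. Fibroblast sums reach 5445 in atrial and 12936 in ventricular libraries, and epicardial sums 8523 in atrial and 3359 in ventricular libraries.

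Genes that make, bind and degrade collagen were examined as lists. Of all tested genes, 8.12% were higher and 6.56% lower in limma, and 16.3% and 16.0% with the replicate block. The counts of the lists were not tested against these shares. Of 19 genes that modify and fold the chains in the endoplasmic reticulum, 1 was higher and 1 lower in atrial cells. With the replicate block the counts were 5 and 2. Called without the block were a pair of prolyl 3-hydroxylases: P3h1 averaged 403 ± 70.9 in atrial and 194 ± 42.4 in ventricular libraries (log2 difference 1.06 ± 0.17; limma, adjusted p = 0.00201), and P3h2 26.5 ± 21.8 and 95.9 ± 21.4 (-2.06 ± 0.40; adjusted p = 0.00564). P3h2 is known for modifying type IV chains. The interaction with the library set was called for 11 of the 19, against the same 5.21% of all tested genes. Among 14 genes of propeptide processing and crosslinking, the procollagen C-proteinase Tll1 was higher (1.88 ± 0.31; adjusted p = 0.00213). The procollagen N-proteinase Adamts14 and the C-proteinase Tll2 were lower (-2.44 ± 0.46 and -3.38 ± 0.93; limma, adjusted p = 0.00449 and 0.0325), and the block gave 2 higher and 2 lower.

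Of 14 proteins that bind or organise fibrils, none was higher and the small leucine-rich proteoglycans Lum and Aspn were lower (log2 differences -1.85 ± 0.52 and -1.58 ± 0.41; limma, adjusted p = 0.035 and 0.0255). At an unadjusted p under 0.05, 1 was higher and 3 lower, edgeR and DESeq2 called 0 higher and 3 lower each, and the block gave 1 and 4. Within replicates 1 and 2 limma called 3 higher and 0 lower (3.09% and 2.04% of all tested genes). Within replicates 3 to 5 it called 2 and 10 (26.2% and 26.6%). The interaction was called for 8 of the 14 (5.21% of all tested genes). It was called for 5 of 14 processing and crosslinking genes and 2 of 7 collagen receptors. Among degradation genes the count was 4 of 8, and among laminin and other basement membrane genes 2 of 16. Lum is also among the fibroblast markers. For these lists too, the shares of all tested genes were 8.12% higher and 6.56% lower in limma, and 16.3% and 16.0% with the block. They were 8.77% and 7.29% in edgeR and 11.0% and 9.84% in DESeq2. Shares at an unadjusted p under 0.05 were not computed. None of 7 collagen receptors was called by limma, edgeR or DESeq2, and at an unadjusted p under 0.05 in limma 0 were higher and 1 lower. Those with the smallest p were the integrin chain Itga1 (-0.95 ± 0.35; limma, adjusted p = 0.11) and the receptor kinase Ddr1 (0.38 ± 0.18; adjusted p = 0.205). With the replicate block Itga1 and Itgb1, the integrin chain that pairs with it, were lower (limma, adjusted p = 0.000885 and 0.00818) and Ddr1 was higher in atrial cells (adjusted p = 0.0411). Of 8 genes of collagen degradation, the metalloproteinase inhibitors Timp1 and Timp3 were higher (1.33 ± 0.29 and 0.79 ± 0.20; limma, adjusted p = 0.0105 and 0.021), and the block gave 3 higher and 0 lower. Of 16 laminin and other basement membrane genes, 2 were higher and none lower in limma (5 and 2 at an unadjusted p under 0.05; edgeR 2 and 0, DESeq2 4 and 1, replicate block 4 and 2). The laminin chain Lamb3 averaged 361 ± 30.3 in atrial and 53.3 ± 11.2 in ventricular libraries (2.76 ± 0.16; limma, adjusted p = 1.62e-06), and nidogen-2, Nid2, 561 ± 154 and 285 ± 85.3 (0.99 ± 0.26; limma, adjusted p = 0.0286).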

How the data were processed

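Reads were processed with Trimmomatic, HISAT2 and featureCounts on GRCm38 (mm10), per the submitters' processing notes. Versions, annotation and counting strand were not given in the sources used here, so reads of overlapping or antisense genes cannot be assigned with certainty. What was deposited is a normalized signal: per the file headers, the authors scaled the reads of each gene by DESeq2 size factors, 1 for each library. Dividing each library by its smallest step gave whole reads for 100% of values within 0.01. On these recovered reads edgeR (4.0.16) called 1090 genes higher and 905 lower in atrial cells and DESeq2 (1.42.0) 1357 and 1218, where limma on the normalized values called 1009 and 815.

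The comparison was fitted with limma (3.58.1, R 4.3.3; trend, robust, two-sided) on log2(normalized reads + 1) over all genes averaging at least 10, with Benjamini-Hochberg adjustment at 0.05, and was tested on simulated data. No covariate or block was used. Same-numbered libraries deviated together from their chamber means, with correlations of 0.582, 0.637, 0.623, 0.556 and 0.631. Each was over 0.1, and by this rule the replicate number was used as a block in an alternative fit. No correlation was computed between libraries of different number, and the 2 chambers share the contrast in Rn45s between the sets. The correlations therefore cannot tell pairing by number from membership of the same set. Blocked values assume pairing by number and are printed where they change a call. Chambers were also compared within replicates 1 and 2, within replicates 3 to 5, and by an interaction. Levels per kilobase used the longest principal transcript of GENCODE M21.

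Values are printed for every tested fibrillar and type IV gene, every called gene of other classes, up to 4 called genes of each pathway list or the 2 of smallest p where none was called, and a summary of the rest. Members, classes and lists were chosen with earlier results of these data known. Alternatives were other pseudocounts, filters, scalings and tools, the block, the library set, and each library left out.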

Additional observations from a re-analysis of the deposited data

Results flagged for a closer look

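In 15 cases 1 library lay far from the other 4 of its chamber, by a gap-to-range test that chance meets in about 1 in 20 groups. Each of the 36 tested collagen genes was examined in each chamber. The share of all tested genes that meet this rule was not computed, so the cases cannot be called particular to collagen genes. The atrial library numbered 1 was the one apart in 11 of them. It was the highest for Col4a1 (5932 normalized reads), Col6a3 (1421), Col5a1 (1298), Col12a1 (963), Col18a1 (706), Col23a1 (259), Col25a1 (97.9), Col13a1 (93.8), Col20a1 (55.2) and Col7a1 (51.0), and the lowest for Col1a2 (3083). Ventricular replicate 1 was the highest for Col23a1 (83.0), Col17a1 (41.5) and Col25a1 (34.6), and ventricular replicate 2 the lowest for Col8a1 (14.6). Both libraries numbered 1 also had reads over more genes than the others.

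The chamber difference differed between the sets of replicates for 12 genes, by limma's interaction term with adjusted p at most 0.05. The change in the log2 difference, replicates 3 to 5 minus replicates 1 and 2, was -3.51 for Col5a3, -3.13 for Col15a1, -2.54 for Col6a3, -2.20 for Col14a1, -2.15 for Col12a1 and -2.13 for Col5a1. It was -1.80 for both Col1a1 and Col6a1, -1.46 for Col6a2, -1.44 for Col5a2, -1.30 for Col4a1 and 0.90 for Col4a6.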

How the results depend on the processing

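Counts of 4 higher and 5 lower collagen genes were 7 and 8 with DESeq2, 9 and 4 with the replicate block, 8 and 7 with the library set as a term, 4 and 0 within replicates 1 and 2, and 10 and 17 within replicates 3 to 5. Leaving out each library gave 4 to 5 higher and 1 to 8 lower. Without both libraries numbered 1, an alternative chosen after seeing the data, 8 were lower. The 2 lower fibrillar genes were 4 with edgeR, DESeq2 or the library set as a term, 1 with the replicate block, 0 within replicates 1 and 2 (where 1 was higher), 7 within replicates 3 to 5, and 0 to 3 with each library left out. The 2 higher type IV genes were 4 with the block, the set term or replicates 3 to 5, where 2 were lower. The 12 interactions ranged from 5 to 10 with each library of replicates 3 to 5 left out. The count was up to 18 with a library of replicates 1 and 2 left out, and 24 without both libraries numbered 1. Fits of these last kinds leave 1 library in a group, whose spread cannot be estimated. The counts of 18 and 24 therefore cannot show that more genes changed between the sets. The calls of Col4a5 and Col4a6 held under every alternative run. Other pseudocounts, no filter and TMM scaling changed none of the 36 chamber calls over all libraries, and the sign of 1 uncalled gene, while the interactions were 13 with a pseudocount of 5 and 10 with no filter.

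Signs turned as follows, in log2 differences. Within replicates 1 and 2: Col6a1 0.18, Col14a1 0.88, Col4a1 0.72, Col8a1 0.34, Col6a2 0.24, Col6a3 0.87, Col1a1 0.95, Col7a1 0.013, Col5a1 0.13 and Col25a1 0.70. Within replicates 3 to 5: Col11a2 0.25, Col4a2 -0.29, Col5a2 -0.30, Col1a2 -0.42, Col3a1 -0.065 and Col16a1 -0.17. With edgeR: Col25a1 1.22, Col11a2 0.062, Col1a2 -0.11 and Col7a1 0.20. With DESeq2: Col11a2 0.0094, Col1a2 -0.11 and Col7a1 0.19. With a pseudocount of 5, Col25a1 was 0.020, and with equal totals Col4a1 was 0.0071. Without both libraries numbered 1: Col20a1 -0.050, Col4a2 -0.10, Col5a2 -0.021 and Col1a2 -0.14. With each library left out, ranges crossed 0 for Col11a2 (-0.70 to 0.15), Col1a1 (-0.76 to 0.26), Col1a2 (-0.33 to 0.44), Col20a1 (-0.36 to 0.54), Col25a1 (-1.06 to 0.29), Col3a1 (-0.075 to 0.68), Col4a1 (-0.25 to 0.043), Col4a2 (-0.059 to 0.23), Col5a2 (-0.0069 to 0.45) and Col7a1 (-0.63 to 0.12). None of these genes was called over all libraries by limma without a block or set term, edgeR and DESeq2 called Col5a1 lower and DESeq2 Col6a1, and the cause was not tested. Depth limits the low genes: 3 reads are up to 10.4 normalized reads in ventricular replicate 1.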

Other observations

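The 8 collagen genes too low to test were each highest in replicate 1 among atrial libraries. Among ventricular libraries replicate 1 was the highest for all but Col9a3 and Col22a1. These had 3.46 and 10.4 normalized reads in ventricular replicate 1, against 9.75 and 12.2 in ventricular replicate 2. In ventricular replicate 1 a single read counts as 3.46 normalized reads and the floor is 10.4, so such values rest on few reads. Col2a1, the fibrillar chain of cartilage, had 15.2 normalized reads in atrial replicate 1 and 20.8 in ventricular replicate 1, and was at 0 in replicates 4 and 5 of both chambers. Col10a1, the collagen of hypertrophic cartilage, had 11 in atrial replicate 1 and 17.3 in ventricular replicate 1 and was at 0 in every other ventricular library. All 44 collagen genes had reads in both libraries numbered 1, and 40 to 43 in the others.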
